A study of Bos taurus with 12 samples.

Results

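The 30 most abundant long noncoding RNA (lncRNA) rows of bovine intramuscular preadipocytes are described across adipogenic differentiation. They were selected on FPKM (fragments mapped to a transcript, scaled by its length and by the mapped reads of the library): the rows of the deposited lncRNA matrix were ordered by their mean FPKM over all 12 libraries, and the first 30 of 7035 were taken. The order used the level itself, so the levels and shares given here describe the selection and carry no test. The row at rank 30, MSTRG.20410.1, had a mean of 113.922 FPKM, and the row at rank 31, MSTRG.23263.18, had a mean of 113.921 FPKM. Each of these means came from 1 library, with 1367.06 FPKM in 6 d replicate 1 for the former and 1367.05 FPKM in 6 d replicate 3 for the latter, and both rows were listed at 0 in every other library.

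The cells were preadipocytes isolated from a back muscle (longissimus dorsi) of newborn cattle of the Qinchuan breed, labelled by the submitters as intramuscular adipocytes, and no genetic change was described. All were grown in serum-containing medium. Differentiation was induced with dexamethasone (DEX), IBMX and insulin and continued with insulin, and RNA was sequenced at 0 d, 3 d, 6 d and 9 d with 3 libraries per day. The day series asks how transcript levels differ along differentiation, and the libraries of a day are biological replicates by the study's methods, while the labels do not say whether they came from separate animals or cultures.

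An lncRNA is a transcript without a coding frame of appreciable length, and many lncRNAs act by binding chromatin, proteins or other RNAs. In fat cells, lncRNAs have been described that promote or restrain the program led by PPARG and CEBPA. Very abundant noncoding RNAs of a cell also include short housekeeping RNAs, such as RMRP, the RNA part of an RNA-processing enzyme.

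The mRNA table of the same libraries was used to check the label. Of the 9 preadipocyte and fibroblast genes, 7 had a mean over 1 FPKM, led by the collagen COL3A1, with 96303 ± 3182 to 170827 ± 6516 FPKM as the lowest and highest day mean (SD, n = 3). DLK1, a preadipocyte gene, and CD34 stayed near 0, with day means of at most 0.0767 and 0.63 FPKM. Of the 10 adipocyte genes 8 were matched, and PPARG and PLIN1 were not. The summed FPKM of the 8 was 135 to 146 on day 0, 759 to 782 after 3 d, then 271 to 295 after 6 d and 246 to 279 by 9 d. Most of it was PLIN2, a lipid droplet coat protein, with day means of 130, 668, 245 and 218 FPKM. By day means, 5 of the 8 were highest at 3 d and 3, LEP, CD36 and CIDEC, at 9 d, with LEP lowest at 3 d, and CEBPA was at most 0.22 FPKM. FABP4, the fatty acid carrier of fat cells, was 3.3 ± 0.255 FPKM at 0 d and 91.1 ± 4.42 at 3 d (SD, n = 3), while the hormone gene ADIPOQ had day means of at most 0.723 FPKM. Of the 8 skeletal muscle genes 7 were matched, led by DES, and their summed FPKM was 711 to 835 on day 0, 268 to 292 after 3 d, then 374 to 418 after 6 d and 277 to 305 by 9 d. Among them, MYOD1 had day means of 268, 109, 47.7 and 54.55 FPKM at 0, 3, 6 and 9 d. From 3 d to 6 d the day means of DES (138 to 314 FPKM) and TNNT1 rose and those of the other 5 fell, and the cultures carried muscle lineage transcripts at each day. The leukocyte gene PTPRC and the haemoglobin gene HBB were listed at 0 in all 12 libraries, the 5 blood and immune genes summed to at most 2.99 FPKM, and the 5 endothelial genes to at most 3.49 FPKM, with CD14 and VWF the most abundant of each list. The 4 proliferation genes, led by CDK1, summed to 36.1 to 47.8 on day 0, 47.3 to 71 after 3 d, then 37.9 to 43.4 after 6 d and 23.9 to 31.4 by 9 d.

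All 30 members carry names given by the transcript assembler (MSTRG, then a locus number and a transcript number), and the matrix pairs none of its 7035 rows with a gene name. Rows with the same locus number are transcripts assembled at 1 locus. Counts and sums by locus cover only its rows in the lncRNA matrix. The transcript numbers have gaps, as for MSTRG.5051, whose only row is MSTRG.5051.3, and transcripts outside the matrix were not counted. The 30 members lie in 18 loci, of which 13 hold 1 member. The locus MSTRG.23263 holds 7 members, MSTRG.25567 and MSTRG.9941 hold 3 each, and MSTRG.25566 and MSTRG.20411 hold 2 each. Counted by rows, 6 members are the only row of their locus, and 24 share their locus with other rows of the matrix, between which the reads of the locus had to be divided.

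The level fell steeply with rank. MSTRG.21027.1 had a mean of 18338 FPKM, MSTRG.25566.3 of 9868, MSTRG.21028.1 of 6239.8 and MSTRG.9775.1 of 2699, while the mean of the member at rank 5, MSTRG.16361.1, was 928 FPKM. The first 3 members held 74.0% of the FPKM of all 30 and 58.2% of all lncRNA FPKM, both taken over the 12-library means, and the first 10 held 89.2% and 70.1%. The member at rank 1 alone held 31% of all lncRNA FPKM over these means, and from 8.02% (3 d replicate 2) to 41.2% (9 d replicate 2) in single libraries.

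**Figure D1:**
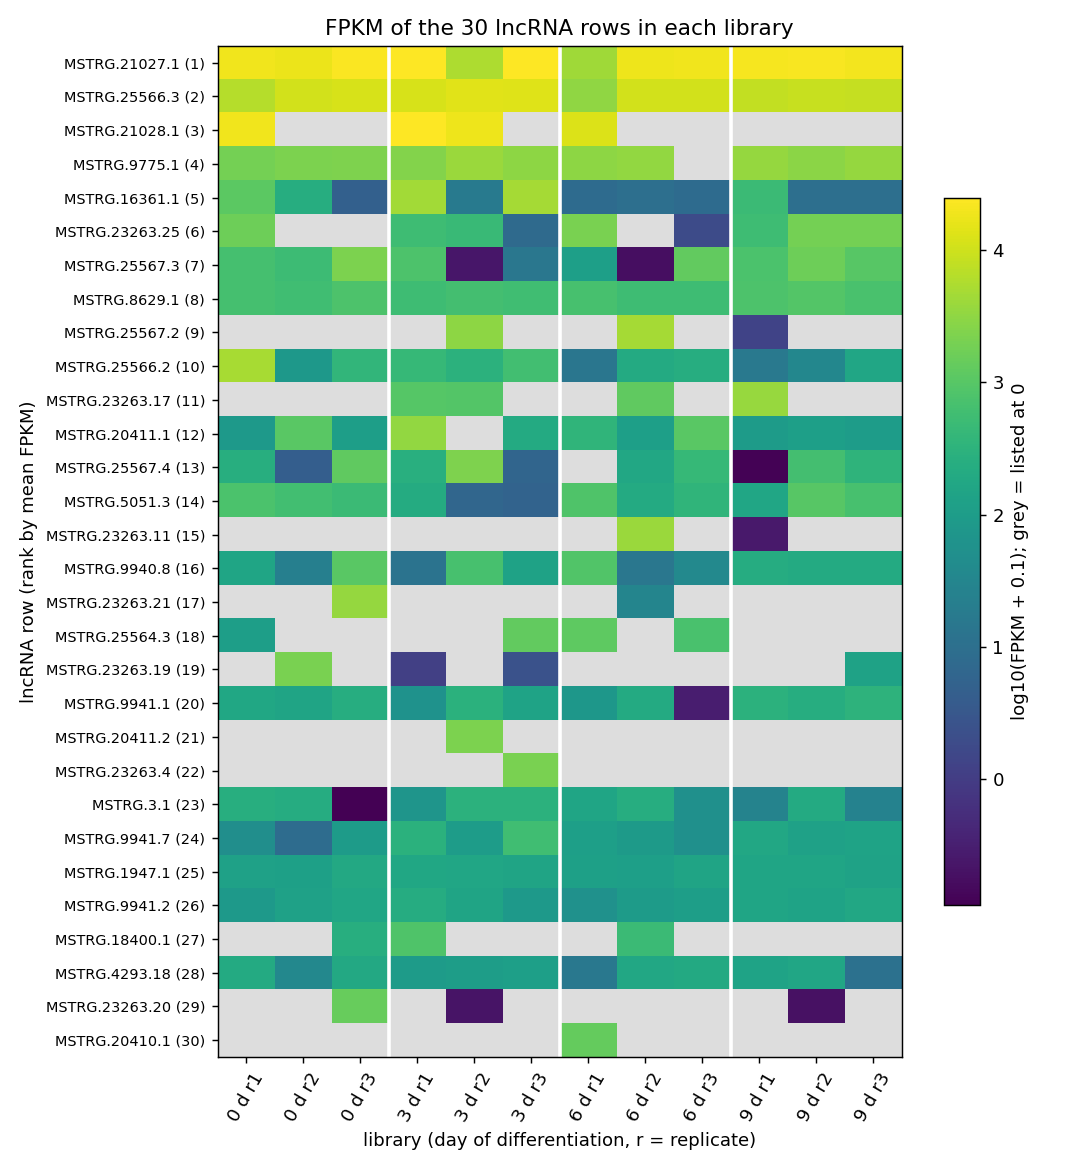
FPKM of the 30 members (rows, by rank) in the 12 libraries (columns, 3 per day), coloured as log10(FPKM + 0.1), with grey where a row is listed at 0. The rows at ranks 8 and 25 are coloured alike across the libraries, whereas 16 of the 30 rows have at least 1 grey cell and 6 rows have over 99% of their FPKM in 1 library.

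MSTRG.21027.1, the only row of its locus, led the list. Its FPKM in replicates 1, 2 and 3 were 19085, 17811, 22948 (0 d), 24679, 5486, 25102 (3 d), 4328, 18773, 19245 (6 d) and 21052, 21809, 19740.2 (9 d). It lay between 17811 and 25102 FPKM in 10 libraries and stood apart, at 5486 and 4328 FPKM, in 3 d replicate 2 and 6 d replicate 1. The 0 d and 3 d libraries overlapped with those of every other day, while all 6 d libraries were below all 9 d libraries. The neighbouring number, MSTRG.21028.1, also the only row of its locus, had 19085, 0, 0 (0 d), 24679, 18036, 0 (3 d), 13079, 0, 0 (6 d) and 0, 0, 0 (9 d). It was thus listed at 0 in 8 libraries and at 13079 FPKM or more in 4, with 9 d the only day at 0 throughout.

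The 4 libraries with MSTRG.21028.1 were of 2 kinds. In 0 d replicate 1 and 3 d replicate 1 its value minus that of MSTRG.21027.1 was -0.49 and 0.17 FPKM, so that both rows carried nearly the same level. In 3 d replicate 2 and 6 d replicate 1, the libraries in which MSTRG.21027.1 was lowest, MSTRG.21028.1 was 12550 and 8750 FPKM higher. Summed, the pair gave 38169.9, 17811, 22948 (0 d), 49358, 23521, 25102 (3 d), 17407, 18773, 19245 (6 d) and 21052, 21809, 19740.2 (9 d). The sum was highest in the libraries in which both rows carried the same level, and in the other 10 libraries it lay between 17407 and 25102 FPKM.

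The known noncoding RNA RMRP has a row in the mRNA table, where it ranked 8 by mean FPKM of 33714 rows. Its FPKM were 18083, 16850.2, 21499 (0 d), 18454, 17292, 18059 (3 d), 15656, 16267, 16589.6 (6 d) and 16381, 17592, 15618 (9 d). It varied little, with a mean within-day coefficient of variation (CV, SD divided by mean) of 0.0626. Set beside it across separately tabled values, MSTRG.21027.1 was 1.06 to 1.39 times RMRP in 10 libraries and 0.317 and 0.276 times RMRP in 3 d replicate 2 and 6 d replicate 1. No position was used for either row, and whether the rows share reads was not tested.

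**Figure D2:**
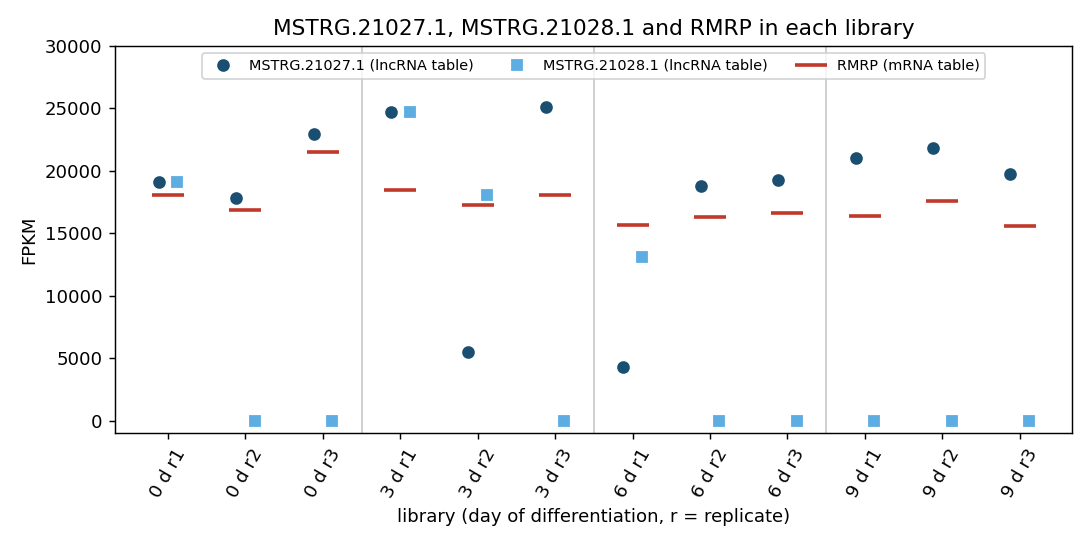
FPKM of MSTRG.21027.1 (circles), MSTRG.21028.1 (squares) and RMRP (bars, from the separate mRNA table) in each library. RMRP lies between 15618 and 21499 FPKM throughout, MSTRG.21028.1 is at 0 in 8 libraries, and MSTRG.21027.1 is low only in 3 d replicate 2 and 6 d replicate 1.

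Loci MSTRG.25564, MSTRG.25566 and MSTRG.25567 have near numbers and hold 6 members. MSTRG.25566.3, the second most abundant row, had 6282, 10605, 11895 (0 d), 12156, 14224, 13594 (3 d), 3258, 10621, 10614 (6 d) and 7927, 8886, 8352 (9 d) FPKM. It was highest at 3 d in all 3 libraries and lowest in 6 d replicate 1, and the 3 d libraries overlapped with no other library. It was not called, with a log2 fold change of 0.52 at 3 d (limma SE 1.63, 0.453 from its own spread alone, adjusted p = 0.85) and an adjusted p of 0.961 in the limma F test across days. Its locus mate MSTRG.25566.2 had 4934, 79.8, 365 (0 d), 423, 301, 613 (3 d), 13.5, 204, 236 (6 d) and 16.3, 32.9, 161 (9 d) FPKM. One library, 0 d replicate 1, held 66.9% of its summed FPKM, and in that library MSTRG.25566.3 was at its lowest value of 0 d. Summed over the 3 rows of the locus, MSTRG.25566 had 11215, 10685, 12260.1 (0 d), 12579, 14526, 14207 (3 d), 3347, 10826, 10850.4 (6 d) and 7943, 8919, 8512 (9 d) FPKM, which brought 0 d replicate 1 within the range of the other 0 d libraries.

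In MSTRG.25567, 2 different rows led the locus, with 57.1% to 100% of its FPKM. MSTRG.25567.3 had 664, 512, 2213 (0 d), 813, 0.13, 14.6 (3 d), 116, 0.07, 1269.7 (6 d) and 764, 1637, 998 (9 d) FPKM and MSTRG.25567.2 had 0, 0, 0 (0 d), 0, 3074, 0 (3 d), 0, 4731, 0 (6 d) and 1.24, 0, 0 (9 d). MSTRG.25567.2 was high in 3 d replicate 2 and 6 d replicate 2, the libraries in which MSTRG.25567.3 was at 0.13 and 0.07 FPKM, and it was at 0 or 1.24 FPKM elsewhere. The locus sum stayed uneven, from 20.6 FPKM in 3 d replicate 3 to 5383 in 3 d replicate 2. MSTRG.25567.4 ranged over 0 to 2309 FPKM and MSTRG.25564.3 was listed at 0 in 8 libraries and had 110, 1268, 1201 and 731 FPKM in the other 4. Added up, the rows of these 3 loci gave 12239, 11202, 15695 (0 d), 13659.8, 19916, 15496 (3 d), 4831, 15737, 13282 (6 d) and 8709, 11171, 9851 (9 d) FPKM, with 6 d replicate 1 the lowest library and no other below 8709.

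MSTRG.9775.1, alone in its locus, had 1949.6, 2236, 2264 (0 d), 2525, 3844, 3039 (3 d), 3138, 3361, 0 (6 d) and 3584, 2886, 3558 (9 d) FPKM. It lay between 1949.6 and 3844 FPKM in 11 libraries and was listed at 0 in 6 d replicate 3. MSTRG.16361.1 had 1123, 243, 4.73 (0 d), 4518, 16.7, 4692 (3 d), 7.98, 10.1, 8.12 (6 d) and 488, 9.84, 10.1 (9 d) FPKM. It was highest in 3 d replicates 1 and 3 and was under 17 FPKM in 7 libraries, with every day but 6 d holding both low and high libraries. MSTRG.8629.1, alone in its locus, had 659, 577, 809.7 (0 d), 553, 636, 573 (3 d), 683, 546, 539 (6 d) and 788, 922, 739.9 (9 d) FPKM. Its libraries lay within 539 to 922 FPKM, and the 9 d libraries were above all libraries of 3 d and 6 d and overlapped with those of 0 d.

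The locus MSTRG.23263 has 22 rows, 7 of them members. MSTRG.23263.25, ranked 6 by mean, had 1627, 0, 0 (0 d), 553, 468, 7.67 (3 d), 2052, 0, 1.75 (6 d) and 549.5, 1929, 1869.9 (9 d) FPKM. It led its locus in 4 libraries and was listed at 0 in 3, and at 0 d, 3 d and 6 d at least 1 library was under 8 FPKM. MSTRG.23263.11 had 3997 FPKM in 6 d replicate 2, 0.15 in 9 d replicate 1 and was listed at 0 in the other 10 libraries. MSTRG.23263.21 had 3508 FPKM in 0 d replicate 3, 29.6 in 6 d replicate 2 and was listed at 0 in the other 10. MSTRG.23263.4 was present in 3 d replicate 3 only, at 2077 FPKM.

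The other 3 members of this locus were also listed at 0 or near 0 in most libraries. MSTRG.23263.19 had 2111 FPKM in 0 d replicate 2, 137 in 9 d replicate 3, and 1.03 and 2.4 FPKM in 3 d replicates 1 and 3, with 0 in the other 8. MSTRG.23263.17 had 947 and 926 FPKM in 3 d replicates 1 and 2, 1214 in 6 d replicate 2 and 3695 in 9 d replicate 1, with 0 in the other 8. MSTRG.23263.20 had 1405 FPKM in 0 d replicate 3 and at most 0.11 FPKM elsewhere. Over the 12 libraries, 7 different rows led the locus, with 30.2% to 98.4% of its FPKM, and the row at rank 31, MSTRG.23263.18, was the leading row in 6 d replicate 3. Summed over its 22 rows, the locus had 1995, 2145, 5773 (0 d), 1700.2, 3069.8, 2114 (3 d), 2202, 5241, 2412 (6 d) and 4458, 3724, 2091 (9 d) FPKM. It was present in all 12 libraries, between 1700 and 5773 FPKM, with the highest library at 0 d and overlap between all days.

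**Figure D3:**
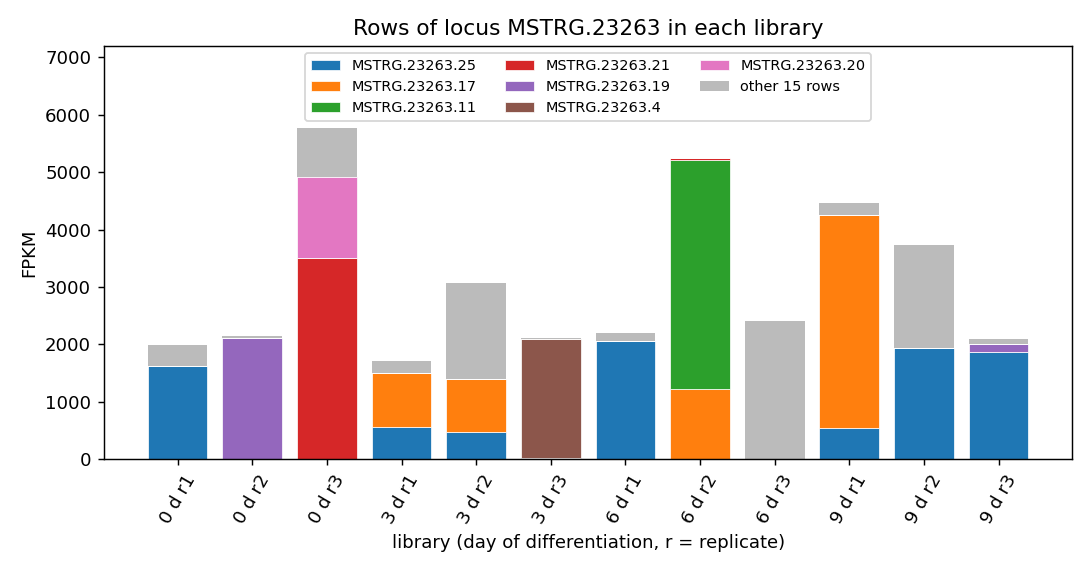
FPKM of the rows of locus MSTRG.23263 stacked by library: 7 members in colour, the other 15 rows in grey. The sum lies between 1700 and 5773 FPKM in every library, while the row that holds most of it changes from library to library.

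Loci MSTRG.9940 and MSTRG.9941 also have neighbouring numbers and hold 4 members. MSTRG.9940.8 ranged over 11.7 to 1094 FPKM, MSTRG.9941.1 over 0.19 to 325, MSTRG.9941.2 over 57.1 to 226 and MSTRG.9941.7 over 8.62 to 567, all of them above 0 in all 12 libraries. MSTRG.9941.1 had its low value, 0.19 FPKM, in 6 d replicate 3, where another row of the locus, MSTRG.9941.5, led with 190.31 FPKM. MSTRG.20411.1 ranged over 0 to 3343 FPKM, and its only 0 was in 3 d replicate 2, the library in which its locus mate MSTRG.20411.2 had 2216 FPKM and outside which that row was listed at 0. MSTRG.20410.1, the row at rank 30, was present in 1 library.

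Of the members still to be named, MSTRG.1947.1 was the steadiest, with 128, 124, 190.3 (0 d), 172, 163, 145 (3 d), 124, 119, 146 (6 d) and 156, 154, 137 (9 d) FPKM. MSTRG.3.1 ranged over 0.01 to 312 FPKM and MSTRG.4293.18 over 10.8 to 206, both above 0 in all libraries. MSTRG.18400.1 was listed at 0 in 9 libraries and had 247 FPKM in 0 d replicate 3, 825 in 3 d replicate 1 and 483 in 6 d replicate 2. MSTRG.5051.3, alone in its locus in the matrix, is described with the tests. In all, 14 members were above 0 in all 12 libraries and 8 of these were above 10 FPKM in each, 16 were listed at 0 in at least 1 library, 12 were above 0 in 6 libraries or fewer, and 11 had over 50% of their summed FPKM in 1 library.

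The 30 members held 72.7% to 83.3% of all lncRNA FPKM in a library. By replicate their share in percent was 83.3, 72.7, 80.8 (0 d), 81.6, 78, 80.3 (3 d), 72.9, 80.6, 73.2 (6 d) and 78, 77.6, 78.6 (9 d). As day means it was 78.9% ± 5.53, 80% ± 1.85, 75.5% ± 4.37 and 78.1% ± 0.464 (SD, n = 3). The ranges of all days overlapped, and the spread was smallest at 9 d. With MSTRG.21028.1 taken out of the members and of the total, a choice made after the data were seen, the day means were 76.8% ± 4.03, 75.2% ± 5.12, 71.7% ± 9.74 and 78.1% ± 0.464 (SD, n = 3).

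The share rests on a few rows. The pair MSTRG.21027.1 and MSTRG.21028.1 alone made up 33.3% to 55.1% of the lncRNA FPKM of a library. Ranks 31 to 60 added 1.72% to 8.20%, and the 30 highest rows of each library, chosen anew in every library, held 76.5% to 85.6%. Of the 30 members, 18 to 22 were above 0 in a given library and 12 to 19 were among that library's own 30 highest rows. Total lncRNA FPKM ran from 43694 in 6 d replicate 1 to 94877 in 3 d replicate 1, and the summed FPKM of all rows outside the 30 from 10294 to 17453.

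**Figure D4:**
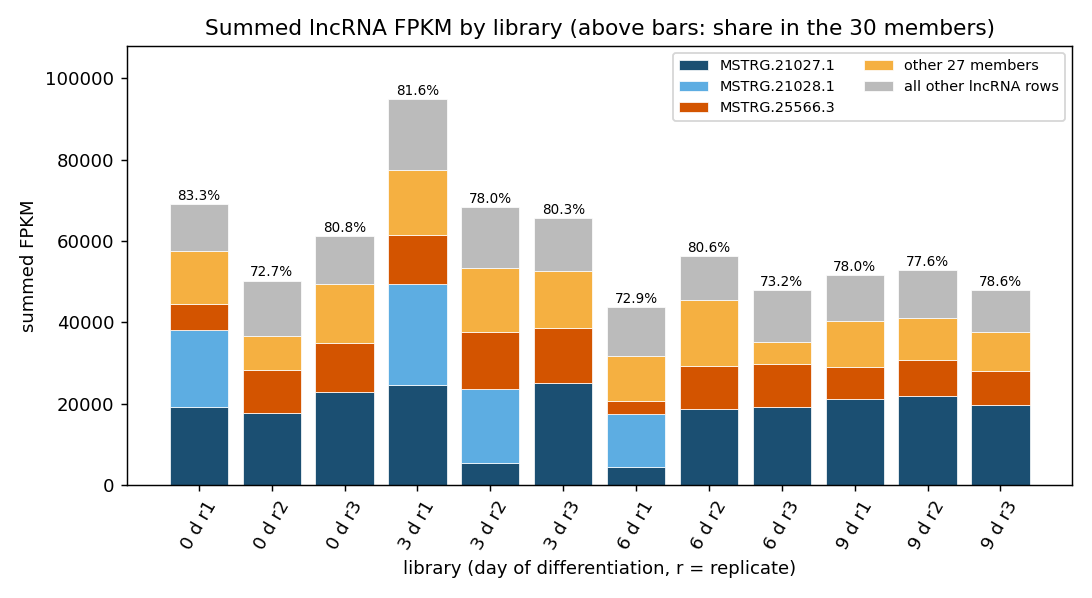
Summed FPKM of the lncRNA matrix in each library, stacked as MSTRG.21027.1, MSTRG.21028.1, MSTRG.25566.3, the other 27 members and all other rows, with the share of the 30 members printed above each bar. The share stays between 72.7% and 83.3%, and the 2 tallest bars, at 0 d replicate 1 and 3 d replicate 1, carry MSTRG.21028.1 at the level of MSTRG.21027.1.

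By day means, the highest day was 0 d for 6 members, 3 d for 11, 6 d for 4 and 9 d for 9. Over all 6906 tested rows the corresponding shares were 24.6%, 51.6%, 13.2% and 10.6%. Of the 12 members with a day at 0 throughout, the highest day is that of the few libraries that carried the row. All 30 members passed the filter on low values, a mean FPKM of at least 0.1, which 6906 of the 7035 rows passed.

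Differences between days were tested with limma on log2(FPKM + 0.1) over all 6906 rows, so that fold changes stand on that scale. A member was called where its absolute log2 fold change exceeded 1 with an adjusted p under 0.05. At 3 d vs 0 d, 2 of the 30 members were called, beside 23.3% of the 6906 rows tested. At 6 d vs 0 d limma called 0 members, beside 6.37% of rows, with 0 members at an unadjusted p under 0.05, and at 9 d vs 0 d it called 0, beside 6.79%, with 2 at an unadjusted p under 0.05. In the limma F test across the 4 days 1 member was called, beside 36.3% of rows. The 3 comparisons share the 0 d libraries. The median standard error of a member's log2 fold change was 2.88, and 16, 17 and 15 of the 30 had absolute log2 fold changes over 1 at 3, 6 and 9 d. The limma SE draws a row's own spread toward that of rows of similar level, and it was larger than the SE from the row's own spread for 4 members, MSTRG.21027.1, MSTRG.25566.3, MSTRG.8629.1 and MSTRG.1947.1. Without that trend on the level, a setting chosen after seeing the data, the same members were called.

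The member that was lower at 3 d was MSTRG.5051.3, with 775, 599.6, 494 (0 d), 218, 6.4, 5.55 (3 d), 822, 210.4, 359 (6 d) and 161, 1010.5, 704 (9 d) FPKM. The 3 d libraries were below all 0 d libraries, 3 d replicates 2 and 3 were under 7 FPKM, and at 6 d and 9 d the values overlapped with 0 d. The log2 fold change at 3 d was -4.94 (SE 1.24, limma adjusted p = 0.014, lower in 3 of 3 libraries than each 0 d library), and the limma F test gave an adjusted p of 0.0257. The limma call at 3 d ended without 0 d replicate 1 (log2 -4.77, adjusted p = 0.0505), without 3 d replicate 2 (-4.13, 0.0597), without 3 d replicate 3 (-4.02, 0.0568) and in a fit of only the 6 libraries compared (-4.94, 0.079), and the F test call ended without the same 3 libraries (0.0558, 0.13 and 0.124). Without 3 d replicate 1, the log2 fold change was -6.66 (adjusted p = 0.000455).

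The member that was higher at 3 d was MSTRG.9941.7, with 48.3, 8.62, 94.5 (0 d), 288, 99.3, 567 (3 d), 118, 92.5, 54.9 (6 d) and 181, 126, 142 (9 d) FPKM. All 3 d libraries were above all 0 d libraries, by least in 3 d replicate 2, and the 6 d values overlapped with 0 d. At 9 d, all libraries were again above those of 0 d. The log2 fold change was 2.89 at 3 d (SE 0.817, limma adjusted p = 0.024, higher in 3 of 3 libraries than each 0 d library) and 2.12 at 9 d (SE 0.817, limma adjusted p = 0.15, not called). Without 1 library, the value at 9 d ran from 1.13, without 0 d replicate 2, to 2.85. The limma call at 3 d ended without 0 d replicate 2 (log2 1.90, adjusted p = 0.0606), without 3 d replicate 1 (2.80, 0.0743), without 3 d replicate 3 (2.31, 0.0867), in a fit of only the 6 libraries compared (2.89, 0.13), and after rescaling the libraries to their median ratio (log2 2.51, adjusted p = 0.0721). That rescaling shifted the median log2 fold change over the tested rows by -0.30 at 3 d, 0.14 at 6 d and 0.24 at 9 d, and it moved the share of calls that were higher from 63.8% to 45.3%, from 48.9% to 58.4% and from 43.5% to 64.2%.

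The second member under an unadjusted p of 0.05 at 9 d was MSTRG.25566.2, with a log2 fold change of -3.56 (SE 1.50, limma adjusted p = 0.187, not called). Leaving out 1 library moved it over -4.92 to -1.95, the smallest without 0 d replicate 1. Of the steady members, MSTRG.8629.1 had log2 fold changes of -0.20, -0.20 and 0.27 at 3, 6 and 9 d (SE 0.355, limma adjusted p = 0.713, 0.808 and 0.698) and MSTRG.1947.1 of 0.14, -0.17 and 0.04 (SE 0.221, limma adjusted p = 0.683, 0.731 and 0.955). None of these was called. After rescaling, MSTRG.8629.1 had log2 -0.58, -0.04 and 0.56, and MSTRG.1947.1 changed sign at 3 d (-0.24). MSTRG.1947.1 also changed sign at 6 d without 0 d replicate 3 (0.03) and at 9 d without 0 d replicate 2 (-0.07). In limma on the mRNA table, beside 23.3% of 15402 rows called at 3 d vs 0 d, 5 of the 8 matched adipocyte genes were higher and 1 lower, and 6 of the 7 matched muscle genes were lower. The part of such changes in the lncRNA values was not tested. In bulk libraries, fewer cells that carry a transcript and less of it per cell cannot be told apart.

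The same tests were run on FPKM summed over the rows of each locus in the lncRNA matrix, with 6145 loci tested. Of the 18 member loci, 2 were called at 3 d vs 0 d, beside 26.2% of loci, and 2 in the limma F test across days, beside 41.2%. At 6 d and 9 d limma called 0 of the 18, beside 7.40% and 7.88% of loci, with 0 at an unadjusted p under 0.05 in both. At 3 d, 3 of the 18 were under that value, with MSTRG.18400 not called (log2 8.34, SE 3.48, limma adjusted p = 0.0911, 0.0602 in the limma F test). Summed over its 3 rows, MSTRG.18400 had 0, 0, 515 (0 d), 825, 686, 307 (3 d), 0, 483, 0 (6 d) and 0, 0, 0 (9 d) FPKM. MSTRG.5051, with 1 row, had the log2 fold change of its row, -4.94 (SE 1.21, limma adjusted p = 0.00986), and leaving out any 1 library left the adjusted p of this comparison at 0.0437 or less. Its call in the limma F test (adjusted p = 0.0183) ended without 3 d replicate 2 (0.0993) and without 3 d replicate 3 (0.0938). Without both 3 d replicate 2 and 6 d replicate 1, a setting chosen after seeing the data, adjusted p was 0.0528 at 3 d and 0.122 in the F test, and neither was called. MSTRG.9941, summed over 10 rows, had 350.1, 351, 608 (0 d), 1166, 619.6, 898 (3 d), 344, 477, 391 (6 d) and 776, 595, 735 (9 d) FPKM. Its 3 d libraries were above those of 0 d, with 619.62 against 607.67 FPKM as the closest pair. Its log2 fold change was 1.04 (SE 0.335, limma adjusted p = 0.0354), smaller than that of its row MSTRG.9941.7, and the call ended without 0 d replicate 1 (log2 0.91, adjusted p = 0.114), without 0 d replicate 2 (log2 0.91, 0.104), without 3 d replicate 1 (log2 0.82, 0.125), without 3 d replicate 3 (0.0827), without 9 d replicate 1 (0.0508), with the replicate block (0.0537) and after rescaling (log2 0.66, 0.4). Its call in the limma F test (adjusted p = 0.0407) ended in 10 of the 12 fits without 1 library, with the replicate block (0.0668) and after rescaling (0.365).

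Replicate scatter was wide. The mean within-day CV of the 30 members (over days not at 0 throughout, n = 3 a day) had a median of 1.09, beside 0.832 for ranks 31 to 60 and 0.417 for all 6906 tested rows. A CV of 1.73 is the largest that 3 values can give and is reached where 1 library holds the whole of a day. Of the members, 17 had a mean CV over 1 (56.7%, beside 46.7% of ranks 31 to 60 and 12.5% of tested rows). A mean CV under 0.25 was found for 3 (10.0%, beside 33.3% and 23.4%). Those 3 were MSTRG.8629.1 (0.125), MSTRG.1947.1 (0.129) and MSTRG.25566.3 (0.241). A row whose mean is raised by 1 library enters the 30 through that library, so the selection itself favours such rows.

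The share of the variance of log2(FPKM + 0.1) that lay between days had a median of 26.7% over the members and 54.5% over all tested rows. With 12 libraries in 4 days, the mean share expected without any day difference is 27.3%. A row present in 1 library has exactly this share whatever its day, so the median over the members is partly set by such rows and says little of day differences. The share exceeded 50% for 3 members, MSTRG.5051.3 (66.9%), MSTRG.8629.1 (62.4%) and MSTRG.9941.7 (57.2%). By day, the median CV of the members was 1.08, 0.866, 0.952 and 0.538 on days 0, 3, 6 and 9, beside 0.432, 0.407, 0.332 and 0.299 for all tested rows.

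Summing rows by locus lowered the scatter at some loci. Of the 12 member loci with more than 1 row, 9 had a mean CV under that of each of their members, and 3 did not: MSTRG.25564 (1.54, beside 1.47 for its member), MSTRG.16361 and MSTRG.1947. For MSTRG.25564 the locus value also counts 9 d, with 0.36 FPKM in 9 d replicate 3 only (CV 1.73). Its member was at 0 throughout that day, which its own value leaves out. The median mean CV of the 18 member loci, where the 7 members of MSTRG.23263 count once, was 0.563, beside 0.383 for all 6145 tested loci, and 4 of the 18 had one over 1. For MSTRG.23263 the mean CV was 0.456, while its 7 members lay between 1.21 and 1.73, and for MSTRG.25566 it was 0.181. For the pair MSTRG.21027 and MSTRG.21028 added together it was 0.237, beside 0.348 and 1.45 apart. MSTRG.25567 and MSTRG.16361 stayed near 1 as loci, at 0.974 and 0.98.

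**Figure D5:**
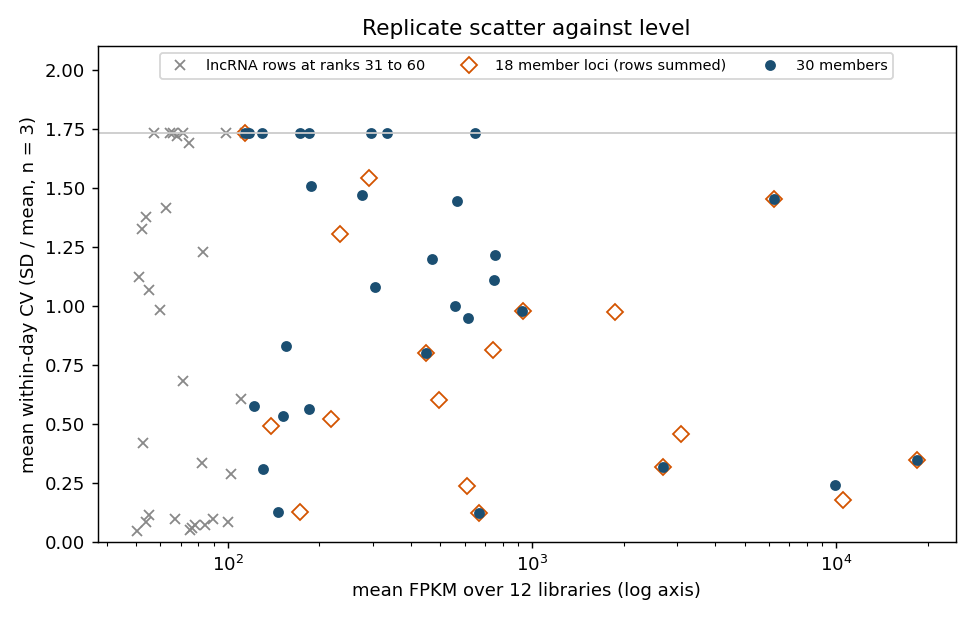
Mean within-day CV (SD divided by mean, n = 3 libraries a day) against mean FPKM over 12 libraries (log axis) for the 30 members (circles), their 18 loci after summing rows (diamonds) and ranks 31 to 60 (crosses); the grey line marks 1.73, the largest CV of 3 values. Of the members with a mean CV over 1, MSTRG.21028.1 lies at 6240 FPKM and the others at 755 FPKM or less, and the loci have a lower median CV.

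Which rows make up the 30 depended on how abundance was averaged. Ordered by the median FPKM in place of the mean, or by the geometric mean of FPKM + 0.1, 17 of the 30 members were kept in either case. MSTRG.21028.1, MSTRG.25567.2, MSTRG.25564.3, MSTRG.20411.2, MSTRG.18400.1, MSTRG.20410.1 and all members of MSTRG.23263 but MSTRG.23263.25 left in both cases. MSTRG.16361.1 left under the median and MSTRG.23263.25 under the geometric mean. The median mean CV of the 30 rows so chosen was 0.328 in both. Chosen again without each library in turn, 28 to 30 of the members were kept.

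Of 37 known lncRNAs looked up by exact name, 9 were found, all in the mRNA table, and RMRP was the most abundant. The lncRNA matrix holds assembler names only, so this search could find none there. Whether the lncRNAs not found are among its rows was not tested. TUG1 had day means of 92.4 ± 30.2, 117 ± 6.05, 99.6 ± 31.2 and 107.5 ± 8.66 FPKM and the imprinted MEG3 of 69.4 ± 14.3, 48.0 ± 16.4, 62.5 ± 5.32 and 52.4 ± 4.46 FPKM at 0, 3, 6 and 9 d (SD, n = 3). All of these day means but that of TUG1 at 3 d were below 113.922 FPKM, the 12-library mean of the row at rank 30. That mean came from 1 library, whereas TUG1 had 66.5 to 131 FPKM in all 12. H19, also imprinted, had 26.1 ± 0.512, 25.9 ± 1.29, 7.80 ± 0.472 and 6.52 ± 0.525 FPKM (SD, n = 3). The remaining 5 had day means of at most 11.5 FPKM. H19 was the only one of the 8 tested that was called in limma on the mRNA table, lower at 6 d (log2 fold change -1.73, SE 0.0764, adjusted p = 1.2e-07) and 9 d (-1.99, SE 0.0764, adjusted p = 6.81e-08), beside 11.4% and 10.9% of 15402 rows tested.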

How the data were processed

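RNA of 12 libraries was sequenced, and the authors deposited FPKM for lncRNA and mRNA rows in separate matrices. The study's methods name Bowtie2 and HISAT2 with the bovine assembly ARS-UCD, rRNA removal and stranded libraries, whereas the labels describe poly(A) selection and the submitters' processing notes list Bowtie 0.12.2, HISAT2 2.0, StringTie 1.3.0 and a mouse build. Of 31 replication histone rows, 21 exceeded 1 FPKM on average. FPKM hold no read counts, so the number of reads behind a value is not given, and an entry at 0 may be a failed estimate. Every column of the libraries was used.

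Days were compared with limma 3.58.1 in R 4.3.3 (eBayes with trend) on log2(FPKM + 0.1) over all rows with a mean of at least 0.1, with Benjamini-Hochberg adjustment, and the fit was checked on simulated data. Descriptions used Python 3.11.15 with pandas 2.3.3. All 30 members are named. Values in every library are given for the 10 highest, for called members and for 3 further members with the highest mean CV, of 7 tied ones those with the highest means, and also, beyond this rule, for MSTRG.1947.1 and some members present in few libraries. Members, gene lists and tests were chosen with earlier results of these data known. Where libraries of a day are not separate cultures, p-values measure only technical spread. The circRNA and miRNA tables were not used.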

Additional observations from a re-analysis of the deposited data

How the results depend on the processing

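The counts of called members at 6 d and 9 d and of called member loci at 6 d and 9 d were 0 under every alternative run. At 3 d vs 0 d, the 2 called members became 1 after rescaling by the median ratio, 0 in a fit of only the 6 libraries compared, and 0 to 2 when 1 library was left out, and stayed 2 with a pseudocount of 1 or 0.01, with no filter and with a mean of at least 1 FPKM. Across the 4 days, the 1 called member became 0 to 2 when 1 library was left out. The 2 called loci became 1 after rescaling and 1 to 3 when 1 library was left out, both at 3 d and across days. Without both 3 d replicate 2 and 6 d replicate 1, chosen after seeing the data, 1 member and 1 locus were called at 3 d, and 0 members and 1 locus across days. Where 1 library was left out, its day had fewer samples and the spread was shared over days. Deviations of same-number libraries from their day means correlated at -0.111 to 0.0768 over 18 pairs. Their median was 0.0299, beside -0.0125 for different numbers, and 5 of 12 libraries had their best match in their own number. Such low values cannot decide whether same-number libraries share an animal or culture, which the labels do not say. With the replicate block, 2 members were called at 3 d and 2 across days, and 1 locus in each, with the call of MSTRG.9941 lost in both and MSTRG.9941.7 gained across days, and no other count changed. Without the trend in limma, chosen after seeing the data, all these counts stayed. MSTRG.8629.1 had log2 -0.58, -0.04 and 0.56 at 3, 6 and 9 d after rescaling, and without 1 library -0.32 to -0.07, -0.32 to -0.07 and 0.15 to 0.40. MSTRG.1947.1 changed sign at 3 d after rescaling (log2 -0.24), and its range without 1 library was -0.278 to 0.0292 at 6 d and -0.0736 to 0.2336 at 9 d. Of the 90 fold changes of members, 41 changed sign under some alternative, 11 under one other than leaving out 1 library, and 0 called ones. With members by median FPKM the day shares were 66.4%, 54.5%, 59.1% and 77.5% at 0, 3, 6 and 9 d, and by geometric mean 66.4%, 58.0%, 57.7% and 74.9%. Without MSTRG.21028.1 the 3 d share was 75.2%. The cause of these changes was not tested. FPKM carry no read counts, and no limit from depth was computed.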
